A study of Mus musculus with 14 samples.

Results

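The data compared were the places in the mouse genome occupied by C/EBPβ in blood progenitors (HP) and in macrophages (MAC), mapped by ChIP-seq, in which the DNA bound by a protein is pulled down with an antibody and sequenced. An HP peak and a MAC peak were called shared where they overlapped by at least 1 bp, and all others were called HP only or MAC only. By this rule the HP list split into 2483 shared and 233 HP only peaks, and the MAC list of 55471 peaks into the same 2483 and 52988 MAC only peaks, of 158488 peaks in the 14 lists of the series. Both populations came from 1 mouse embryonic stem (ES) cell line of strain 129 that carried a Brachyury-GFP reporter. HP cells were sorted for CD41 after differentiation in culture, MAC cells expressed CD11b after terminal differentiation of CD41+ cells, and the same C/EBPβ antibody (Santa Cruz sc150) was used for both. Each population gave 1 list, so the variation between replicates is unknown, and every test given here compares peaks of single libraries, not conditions. Peaks that lie close together are not independent of each other, and intervals cover counting error only.

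C/EBPβ is a basic leucine zipper protein that binds DNA as a dimer, and each partner of the dimer reads one arm of a short inverted repeat. With PU.1, encoded by Spi1, it is known as a regulator of myeloid genes, and it also acts in inflammation, fat cells and the liver. C/EBP proteins can form dimers with related factors such as ATF4 and DDIT3, which act when amino acids are scarce or proteins misfold. CD41 is the integrin chain encoded by Itga2b and CD11b the integrin chain encoded by Itgam, and both served as sorting markers. Peak lists hold no expression values, so the identity of the sorted cells could not be checked against marker levels.

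The letters searched for C/EBP were TTGCACAA, TTGCATAA, TTGCGTAA and TTGCGCAA on both strands. The last of these reads the same on both strands and is called the palindrome here. The sequences that follow show a site of the consensus, in capitals, inside peaks of the 3 classes, read from the RefSeq genome of build GRCm38. The window of Csf3r holds a further TTGCACAA in lower case. For a gene list, the peak shown was the one nearest to the start of a member among those holding the consensus. None of these windows touched an annotated exon of a coding transcript. The shared peaks came from Cebpb (chr2:167754070-167754129, minus strand, intergenic), Csf3r (chr4:126017817-126017876, plus strand, intergenic), Ptgs2 (chr1:150099936-150099995, plus strand, promoter), Ndrg1 (chr15:66969790-66969849, plus strand, promoter), Flt1 (chr5:147727143-147727202, plus strand, promoter) and Neurod1 (chr2:79523617-79523676, plus strand, intergenic). They were picked after the values had been seen because 4 of these 6 carry the palindrome, the form with the largest odds ratio between shared and MAC only peaks. The peaks of Cebpb and Neurod1 lay 65227 and 66990 bp from the start of these genes.
Cebpb: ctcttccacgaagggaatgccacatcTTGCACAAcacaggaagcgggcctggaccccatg
Csf3r: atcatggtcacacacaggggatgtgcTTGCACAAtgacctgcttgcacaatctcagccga
Ptgs2: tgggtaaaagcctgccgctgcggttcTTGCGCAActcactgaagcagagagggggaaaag
Ndrg1: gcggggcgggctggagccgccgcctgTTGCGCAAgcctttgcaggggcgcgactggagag
Flt1: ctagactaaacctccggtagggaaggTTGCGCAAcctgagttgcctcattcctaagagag
Neurod1: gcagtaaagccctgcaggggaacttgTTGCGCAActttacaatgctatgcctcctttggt

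The MAC only peaks shown came from Clec4e (chr6:123289904-123289963, plus strand, promoter), Gfi1 (chr5:107726156-107726215, plus strand, promoter), Pparg (chr6:115368018-115368077, minus strand, intron of Pparg) and Rac2 (chr15:78575609-78575668, plus strand, intergenic). They are examples from the larger class, at a pattern receptor, a repressor, a nuclear receptor of lipid metabolism and a subunit of the phagocyte oxidase. The HP only peak shown, chosen in the same way, is at Fcgr4 (chr1:171037836-171037886, minus strand, intergenic) and lies within 500 bp of tRNA genes.
Clec4e: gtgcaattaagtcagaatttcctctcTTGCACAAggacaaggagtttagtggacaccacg
Gfi1: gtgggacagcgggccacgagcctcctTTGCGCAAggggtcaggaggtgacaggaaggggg
Pparg: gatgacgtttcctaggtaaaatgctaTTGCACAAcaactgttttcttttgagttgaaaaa
Rac2: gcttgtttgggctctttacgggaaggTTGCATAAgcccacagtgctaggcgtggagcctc
Fcgr4: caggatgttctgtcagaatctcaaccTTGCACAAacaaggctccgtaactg

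Nearly all places listed in HP were listed again in MAC. The 2483 shared peaks were 91.4% of the HP list (exact 95% interval 90.3% to 92.4%) and 4.48% of the MAC list (4.31% to 4.65%). These shares follow from the rule and from the lengths of the lists, and they are given without a test. Each shared HP peak met 1 MAC peak. The centres of both lay a median of 19 bp apart, with quartiles of 8 and 37 bp, and 2079 pairs (83.7%) lay within 50 bp. Of the 2483 pairs, 30 had centres more than 200 bp apart. The study's authors chose the calling threshold for each library by eye and used a more lenient one in MAC than in HP. The number of peaks is therefore no measure of the amount of binding, and threshold, depth and binding cannot be told apart as sources of the 20.4-fold difference in list length.

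Shared peaks lay at promoters more often than MAC only peaks. Promoter peaks were those centred at most 2 kb from a coding TSS, the position where transcription starts. They made up 739 shared peaks (29.8%, 28% to 31.6%), 8332 MAC only peaks (15.7%, 15.4% to 16%) and 43 HP only peaks (18.5%, 13.7% to 24%). The difference between shared and MAC only peaks was 14 percentage points (Fisher's exact test, two-sided, adjusted exact p = 8.3e-65), and that of HP only minus shared peaks was -11.3 points (adjusted exact p = 3.0e-04). Without peaks at tRNA genes the latter was -6.57 points and did not pass (adjusted exact p = 0.167). With TSS of all transcripts, which include tRNA genes, its sign turned and it passed, as given below. Introns held 42.8% of MAC only peaks, 31.7% of shared peaks and 20.2% of HP only peaks. Intergenic places held 38.9%, 36.0% and 61.4% of these classes in turn. The median distance to the nearest coding TSS was 21988 bp for MAC only, 11864 bp for shared and 14308 bp for HP only peaks. MAC only peaks thus lay more in introns and further from start sites than shared peaks. The large intergenic share of HP only peaks went with tRNA genes, since of the 111 HP only peaks away from tRNA genes 45 (40.5%) lay in introns, 40 (36.0%, 27.1% to 45.7%) between genes and 26 (23.4%) at promoters.

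The C/EBP consensus was found in 1008 shared peaks (40.6%, 38.7% to 42.6%), in 7240 MAC only peaks (13.7%, 13.4% to 14%) and in 32 HP only peaks (13.7%, 9.59% to 18.8%). The difference between shared and MAC only peaks was 26.9 percentage points (odds ratio 4.32, adjusted exact p = 1.3e-223). Windows of the same width placed 2 kb to either side held it in 2.24%, 2.39% and 1.72% of cases around shared, MAC only and HP only peaks. All 3 classes thus held the consensus more often than their flanks did. The share in HP only peaks moved with the peaks used, to 26.1% against 13.7% of MAC only peaks without peaks at tRNA genes (adjusted exact p = 0.00123), and to 36.8% against 20.7% with as many MAC rows as HP peaks (adjusted exact p = 1.1e-25). In that last setting, here and below, HP only means the 1801 HP peaks that overlapped none of these rows from the start of the MAC list. Of the 1801, only the 233 HP only peaks of the main rule overlapped no MAC peak. The others overlapped later MAC rows, so values of this wider class are not those of peaks absent from MAC. In shared peaks the consensus lay a median of 13 bp from the centre, and in 87.4% of the peaks that held it the distance was within 50 bp.

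The palindrome had the largest odds ratio of shared to MAC only peaks among the consensus sequences searched. TTGCGCAA occurred in 305 shared peaks (12.3%, 11% to 13.6%) against 496 MAC only peaks (0.936%, 0.856% to 1.02%) and 4 HP only peaks (1.72%, 0.470% to 4.34%). The odds ratio of shared to MAC only peaks was 14.8 (difference 11.3 points, adjusted exact p = 3.3e-198), and 0.0201% of the flanks of shared peaks held it. With as many MAC rows as HP peaks, 12.2% of HP only, 9.84% of shared and 1.22% of MAC only peaks held it. The HP only peaks of that setting were 10.9 points above MAC only peaks (adjusted exact p = 5.0e-43), and most of them are shared by the main rule. Among all consensus sites in shared peaks, 28.5% were the palindrome, against 6.59% in MAC only peaks. Of the other forms, TTGCGTAA was in 6.52% of shared and 1.53% of MAC only peaks. TTGCACAA, the commonest form, was in 18.4% and 7.61%, whereas TTGCATAA was in 4.79% and 3.88%. As a ratio of shared to MAC only peaks, the 2 forms that contain the dinucleotide CG therefore stood furthest apart and TTGCATAA the least, whereas in points TTGCACAA lay further apart than TTGCGTAA. Among peaks outside promoters the palindrome still differed by 12 points (adjusted exact p = 3.1e-151). The median number of CG dinucleotides in a peak was 7 in shared, 4 in MAC only and 10 in HP only peaks, and its part in these differences was not tested.

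**Figure D1:**
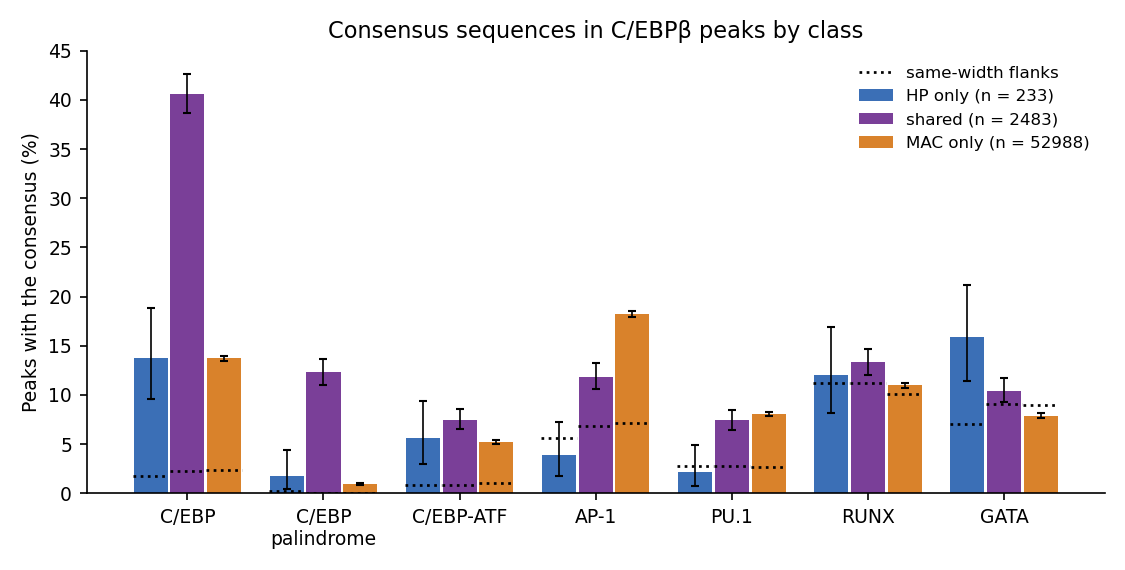
Share of C/EBPβ peaks (%, y axis) holding each consensus sequence, for HP only, shared and MAC only peaks. Bars give the share, error bars the exact 95% interval, and dotted lines the share of flanking windows of the same width. The C/EBP consensus stands at 40.6% in shared peaks and at 13.7% in both other classes, of which HP only stands at 26.1% without peaks at tRNA genes, while the AP-1 consensus is highest in MAC only peaks, at 18.2%.

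Other consensus sequences separated the classes in other directions. AP-1 proteins are dimers of FOS and JUN factors that act widely in activated macrophages. Their consensus, TGACTCA or its reverse complement TGAGTCA, was in 18.2% of MAC only peaks (17.9% to 18.5%), 11.8% of shared peaks (10.6% to 13.2%) and 3.86% of HP only peaks (1.78% to 7.21%). Shared minus MAC only peaks gave -6.35 points (adjusted exact p = 2.4e-16), and flanks held it in 6.83% and 7.14% of windows. With as many MAC rows as HP peaks, 9.61% of HP only, 14.2% of shared and 19.8% of MAC only peaks held the AP-1 consensus. All letters that follow were likewise searched on both strands. The PU.1 letters GAGGAAGT were in 7.41% of shared and 8.06% of MAC only peaks, which did not pass the test (adjusted exact p = 0.367), and in 2.15% of HP only peaks. HP only minus shared peaks gave -5.26 points for PU.1 (adjusted exact p = 0.00232), which without peaks at tRNA genes was -4.88 points and did not pass (adjusted exact p = 0.0867), nor did it with as many MAC rows as HP peaks (-1.21 points, adjusted exact p = 0.360). The GATA letters AGATAAC or AGATAAG were in 15.9% of HP only peaks (11.4% to 21.2%), 10.4% of shared peaks and 7.88% of MAC only peaks. HP only peaks were 8.00 points above MAC only peaks (adjusted exact p = 1.5e-04) and 5.45 points above shared peaks (adjusted exact p = 0.0283), and the latter did not pass among peaks outside promoters (5.68 points, adjusted exact p = 0.0594). RUNX letters, TGTGGTT, were in 13.3% of shared and 11% of MAC only peaks (2.33 points, adjusted exact p = 9.4e-04), near their flanks of 11.2% and 10.1%. The C/EBP-ATF composite TGATGCAA, read by mixed dimers, was in 7.49% of shared and 5.21% of MAC only peaks (2.28 points, adjusted exact p = 9.7e-06), and in 0.866% and 1.06% of the respective flanks. With as many MAC rows as HP peaks neither difference passed, at 0.0320 points for RUNX (adjusted exact p = 1) and 1.04 points for C/EBP-ATF (adjusted exact p = 0.439). Of the 30 comparisons made with 10 consensus sequences, 16 passed the threshold of 0.05 after adjustment over all 30.

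The rows of the MAC list did not follow the genome, and their order went with overlap and sequence. As many rows from its start as the HP list holds covered 20 chromosomes, and 915 of these rows (33.7%, 31.9% to 35.5%) were shared. When all MAC rows were cut into 10 blocks of equal size in that order, 24.8% of peaks were shared in the first block, against 0.360% in the last, and the median MAC row of a shared peak was 4570. What the order stands for was not given in the sources used here. The share of MAC peaks on a PU.1 peak of the same cells fell over the blocks from 64.4% to 29.2%.

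The C/EBP consensus of shared peaks showed no such fall over the MAC rows. It was in 39.8% of the 1374 shared peaks of the first block and in 50.0% of the 20 shared peaks of the last, with a range over all blocks of 37.7% to 50.0%. Over the rows of the HP list, the consensus share of HP peaks of any class was 59.8% in the first of 10 blocks and 32.4% in the last, and the share at promoters 46.1% and 26.1%. Among MAC only peaks over the MAC rows the consensus was in 19.2% in the first block and in 12.2% to 15.2% in the others. Within every block shared peaks held it more often than MAC only peaks, by 20.6 to 37.2 points (adjusted exact p of 9.3e-05 or lower in each). The palindrome was likewise more frequent in shared peaks within each block, by 9.29 to 28.2 points, with adjusted exact p of 0.0116 or lower. This split into blocks was chosen after the values had been seen. Within the rows that equal the HP list in number the consensus was in 377 of 915 shared peaks (41.2%, 38% to 44.5%) and 373 of 1801 MAC only peaks (20.7%, 18.9% to 22.7%; difference 20.5 points, adjusted exact p = 2.0e-27). Promoters held 34.0% of these shared and 13.8% of these MAC only peaks.

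**Figure D2:**
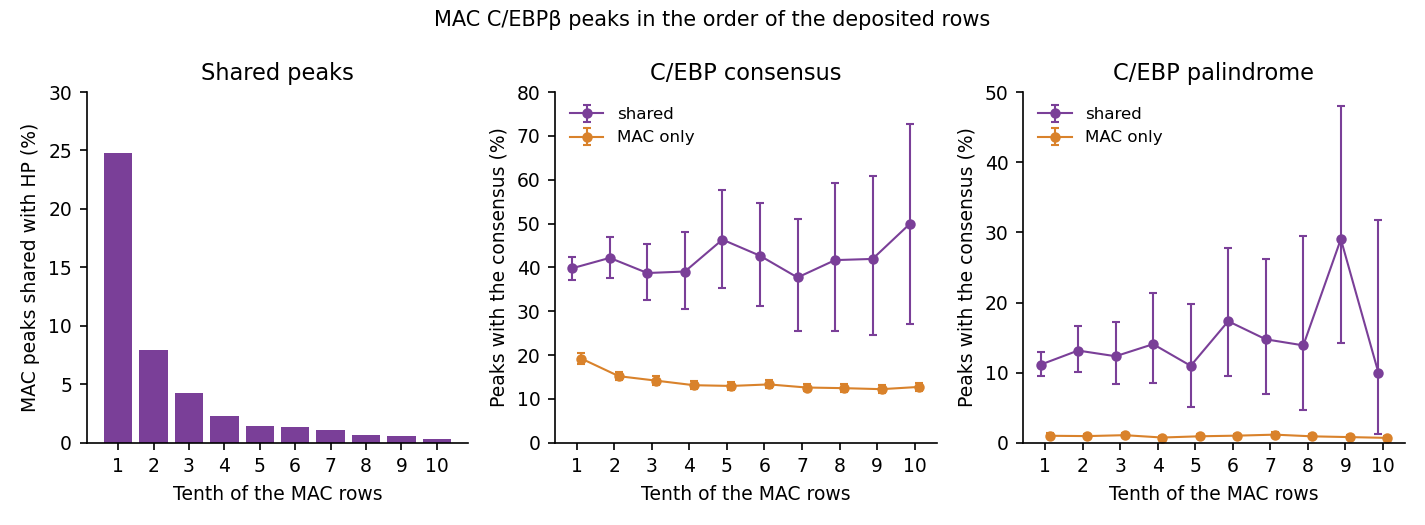
MAC C/EBPβ peaks in the order of the deposited rows, in 10 blocks of equal size (x axis). The left plot gives the share of MAC peaks that overlapped an HP peak (%), the middle and right plots the share of peaks with the C/EBP consensus or its palindrome (%) among shared and MAC only peaks, with exact 95% intervals. Overlap falls from 24.8% to 0.360% while the consensus of shared peaks stays between 37.7% and 50.0%.

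Shared peaks were on PU.1 peaks more often than MAC only peaks in either cell type. Of the shared peaks, 55.3% (53.3% to 57.3%) overlapped a PU.1 peak of MAC and 15.9% (14.5% to 17.4%) a PU.1 peak of HP. MAC only peaks did so in 41.9% (41.5% to 42.3%) and 6.71% (6.50% to 6.93%). The differences were 13.4 points (adjusted exact p = 1.4e-38) and 9.24 points (adjusted exact p = 2.2e-52). HP only peaks overlapped PU.1 of MAC in 22.3%, a difference of -33 points from shared peaks (adjusted exact p = 3.2e-22), and PU.1 of HP in 4.29%. Within the MAC rows equal in number to the HP list, 72.9% of shared and 66.8% of MAC only peaks were on PU.1 of MAC (6.10 points, adjusted exact p = 0.00193). Of the HP only peaks by that rule 42.1% were on PU.1 of MAC and 12.8% on PU.1 of HP, the latter 3.39 points above MAC only peaks (adjusted exact p = 0.00228). Most of these HP only peaks overlap later MAC rows and are shared by the main rule.

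Earlier stages of the same differentiation were also compared, and their C/EBPβ lists were not used to form the classes. C/EBPβ peaks of mesoderm (MES), hemangioblast (HB) or hemogenic endothelium (HE) overlapped 652 shared peaks (26.3%, 24.5% to 28.0%), 285 MAC only peaks (0.538%, 0.477% to 0.604%) and 77 HP only peaks (33.0%, 27.0% to 39.5%). Each earlier list is far shorter than the MAC only class, which capped the share of MAC only peaks at a low value in advance. Its gap to the other classes therefore cannot show that MAC only places were unbound earlier. Without peaks at tRNA genes the shares were 24.9% of shared peaks (23.1% to 26.6%), 0.529% of MAC only peaks and 12.6% of HP only peaks (14 of 111, 7.07% to 20.3%), so the order of shared and HP only peaks turned. For the MES list the shares were 22.2% of shared, 0.438% of MAC only and 4.29% of HP only peaks. The last was 9.01% without peaks at tRNA genes and 17.1% with as many MAC rows as HP peaks. In the same order of classes the HE list gave 2.30%, 0.00944% and 22.7%, so that HP only peaks were 20.5 points above shared peaks (adjusted exact p = 5.7e-29). The call for HE rested on peaks at tRNA genes, without which the difference was 0.238 points (adjusted exact p = 0.584). With as many MAC rows as HP peaks it was 4.13 points (5.44% against 1.31%, adjusted exact p = 7.8e-08). Of 36 comparisons with 12 other lists, 26 passed the threshold.

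HP only peaks lay more often than the other classes at genes for transfer RNA (tRNA), the adaptors that carry amino acids to the ribosome and are transcribed by RNA polymerase III. A peak within 500 bp of 1 of 403 annotated tRNA genes accounted for 122 of 233 HP only peaks (52.4%, 45.7% to 58.9%), against 2.78% of shared peaks and 0.0510% of MAC only peaks. The difference between HP only and shared peaks was 49.6 points (adjusted exact p = 7.9e-95). With as many MAC rows as HP peaks, the 1801 HP peaks without overlap held 187 at tRNA genes (10.4%, 9.01% to 11.9%), against 0.437% of shared peaks (9.95 points, adjusted exact p = 3.9e-29). Of these 122 peaks, 62 lay on chromosome 13 and 52 overlapped an HE peak. The whole HP list had 191 peaks at tRNA genes (7.03%) and the MAC list 96 (0.173%). They touched 234 tRNA genes in HP and 118 in MAC, and 109 in both. Transfer RNA genes in clusters share peaks, so these counts are not independent.

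The genes with the most HP only peaks followed these clusters. Zfp184, a zinc finger gene on chromosome 13, had 16 HP peaks of which 12 were HP only, beside 5 MAC peaks. Abt1 had 12 HP peaks with 10 HP only, Gpx5 had 9 HP peaks that were all HP only and no MAC peak, and Trim27 had 7 with 6 HP only. Also on chromosome 13 lay H4c8 (5 HP only peaks), Btn1a1 (4) and Vmn1r223 (4). On other chromosomes Zfp213 had 4 HP only peaks, and Ang and Fcgr4 had 3 each. Fcgr4, an IgG receptor gene, had 4 HP peaks 15010 bp or more from its TSS, and its 3 HP only peaks lay at tRNA genes.

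Away from tRNA genes the remaining 111 HP only peaks looked different. The C/EBP consensus was in 29 of them (26.1%, 18.2% to 35.3%), against 41.4% of shared and 13.7% of MAC only peaks away from tRNA genes. The differences were -15.3 points (adjusted exact p = 0.00366) and 12.5 points (adjusted exact p = 0.00123). With peaks at tRNA genes kept and as many MAC rows as HP peaks, the first was -4.39 points and did not pass (adjusted exact p = 0.0539). The GATA letters were in 30 of the 111 (27.0%, 19% to 36.3%), against 10.6% of shared and 7.89% of MAC only peaks, a difference of 16.5 points from shared peaks (adjusted exact p = 1.7e-05). A GATA2 peak of HP overlapped 10 of them (9.01%, 4.41% to 15.9%), against 1.70% of shared peaks (7.31 points, adjusted exact p = 1.0e-04) and 0.208% of MAC only peaks. With peaks at tRNA genes kept, the difference from shared peaks was 2.60 points (adjusted exact p = 0.0157), and with these kept and as many MAC rows as HP peaks it was 0.415 points and did not pass (adjusted exact p = 0.604). The HE list overlapped 1 of them (0.901%), and 0.663% of shared peaks. GATA2 is a zinc finger factor of blood stem and progenitor cells. An HP only peak on a GATA2 peak lay in introns of Usp40 (chr1:87961558-87961957) and Ccr4 (chr9:114503017-114503416), and at Gfi1, where a peak in the neighbouring gene Evi5 (chr5:107759056-107759455) overlapped 10 other lists. At Myb, which encodes a factor needed by progenitors, 1 HP only peak lay in an intron (chr10:21131052-21131451) and overlapped no other list. Usp40 and Ccr4 were named after their values had been seen.

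HP only did not mean far from MAC binding. The median distance from an HP only peak to the nearest MAC peak was 4949 bp, and 43 of the 233 (18.5%) had one within 1 kb. They had 166 nearest coding genes, of which 148 also had a MAC peak. At the level of genes, 2248 of 21000 coding genes (10.7%) had an HP peak, 13854 (66%) had a MAC peak, 2230 had both and 18 had HP peaks with no MAC peak. A further 11624 genes (55.4%) had MAC peaks with no HP peak, and 1871 genes had a shared peak together with at least 1 MAC only peak. When the MAC list was limited to as many rows as that of HP, 1059 genes had both, 1189 had HP peaks alone and 1089 had MAC peaks alone. With lists of equal length the genes unique to each were thus about as many as those in common.

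A shared HP peak is also a MAC peak of its gene, so that genes with and without HP peaks were compared by their MAC only peaks, a count chosen after the values had been seen. The median number of MAC only peaks was 4 (quartiles 1 and 8) for the 2248 genes with an HP peak and 1 (quartiles 0 and 3) for the 18752 genes without. The groups also differed in the size of a gene's domain, the stretch of genome for which its TSS is the nearest, with a median of 88.8 kb for genes with an HP peak and 45.8 kb for genes without. In 5 equal groups of genes by domain size, from the smallest to the largest, the medians with and without an HP peak were 0 and 0, 1 and 1, 3 and 1, 4 and 2, and 9 and 3 MAC only peaks. Among the 2 groups of small domains the medians were thus equal, and in the other 3 groups they were higher at genes with an HP peak. The means in these 2 groups still differed, at 0.657 with and 0.58 without an HP peak in the first and 1.5 and 1.05 in the second. Per megabase of domain, genes with an HP peak had 29 MAC only peaks and genes without had 17.5.

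**Figure D3:**
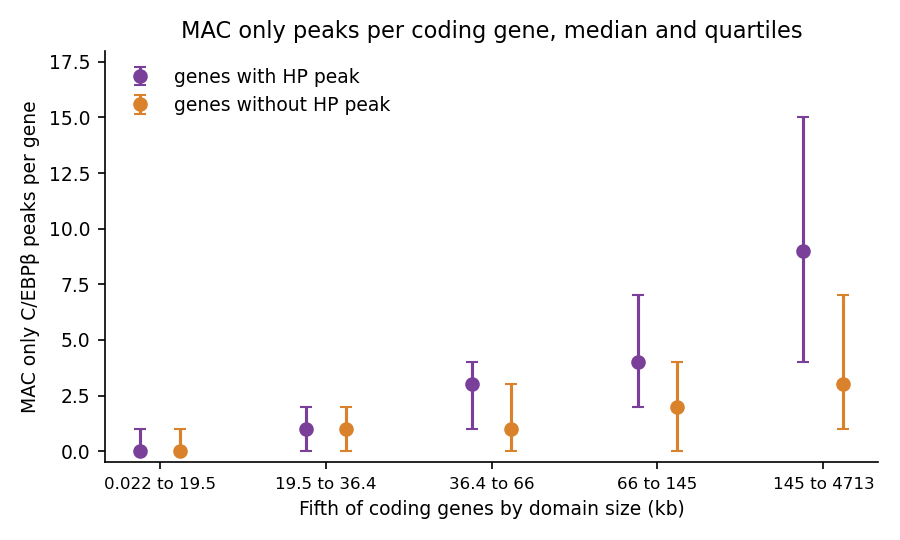
MAC only C/EBPβ peaks per coding gene (y axis) for genes with and without an HP peak, in 5 equal groups of all coding genes by domain size in kb (x axis). Points are medians and bars run from the lower to the upper quartile. The medians are equal in the 2 groups with the smallest domains and are 9 and 3 in the group with the largest.

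At least 2 HP peaks were found at 327 coding genes (1.56%) and at least 10 MAC peaks at 1209 (5.76%). The gene with the most MAC peaks was Lpp, a LIM domain gene, with 70 MAC peaks and 1 HP peak. Runx1, which encodes a factor required for blood formation, had 55 MAC peaks and 4 HP peaks. Trib1, whose product promotes the breakdown of C/EBPα, also had 55 MAC peaks and 5 HP peaks, all of them shared. The HP peaks of Trib1 included 1 at 110 bp upstream of the TSS with the C/EBP consensus. Myc had 53 MAC and 4 HP peaks, Irs2 had 52 and 1, and Klf6 had 50 and 2. Zfp608 had 50 and 5, Adgrl2 had 47 and 1, and Nrp1 and Zeb2 each had 46 and 1. The 4 HP peaks of Runx1 and the 5 of Trib1 stood beside the MAC peaks of domains of 617 kb and 321 kb. The domains of the other genes above ran from 579 kb for Irs2 to 2293 kb for Adgrl2, beside a median of 49 kb over all coding genes. Sipa1l2, a GTPase activator gene, had 5 HP peaks, all shared, and 37 MAC peaks. BC107364 had 5 HP peaks, 2 of them HP only, and 4 MAC peaks. In all, 13 genes had at least 5 HP peaks, so that several tied for the last places.

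Gene lists were compared by counts, and the share over all coding genes, 10.7% with an HP peak and 66% with a MAC peak, is the measure beside which each count stands. In all 20 lists every member with an HP peak also had a MAC peak, as did 99.2% of all coding genes with an HP peak. No list was tested as a set, and genes with larger domains had more MAC peaks. The median domain was 49.0 kb over all coding genes and ranged over the lists from 23.0 kb for neutrophil granule genes to 169 kb for myeloid transcription factors, with 141 kb for neuron and 104 kb for endothelial genes. Transcription factors of progenitors had HP peaks at 13 of 20 genes (65.0%) and MAC peaks at all 20, with a median of 5 MAC peaks and a median domain of 89.9 kb. Beside Runx1, the genes with at least 2 HP peaks were Tal1 (2 HP and 3 MAC peaks), Lmo2 (2 and 12), Etv6 (2 and 34), Ikzf1 (2 and 7), Gfi1 (2 and 8) and Myb (2 and 3). TAL1 and LMO2 belong to a complex that specifies blood, and both HP peaks of Tal1 were shared and held the C/EBP consensus. Erg, Mecom, Gata2, Zfpm1, Ldb1, Klf1 and Gata1 had no HP peak and from 1 to 12 MAC peaks. Hhex, at which the authors checked the immunoprecipitation, had 1 HP peak and 4 MAC peaks, and the HP peak lay 8190 bp downstream of the TSS. That is away from the element checked, whose name places it nearer to the TSS. In the MAC rows equal in number to the HP list, 12 of the 20 genes had a MAC peak.

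Transcription factors of myeloid cells had HP peaks at 11 of 20 genes (55.0%) and MAC peaks at all 20, with a median of 11 MAC peaks and a median domain of 169 kb. When peaks were assigned only within 50 kb of a TSS, 6 of the 20 had an HP peak, and 5 did when a peak had to lie in a gene or at most 10 kb away. By these 2 rules 1840 and 2422 of 21000 coding genes had both an HP and a MAC peak, beside 2230 by the main rule. Spi1, also used by the authors to check the immunoprecipitation and so no independent case, had 2 HP peaks (chr2:91082886-91083285 and chr2:91098159-91098558) and 6 MAC peaks. Both HP peaks of Spi1 were shared, and a MAC only peak centred 9 bp from a TSS held the consensus. Nfil3, a basic leucine zipper repressor, had 2 HP and 12 MAC peaks, and both HP peaks lay in the promoter with the consensus. Klf6 had the most MAC peaks of the list, with 50. Id2 had 43 MAC peaks and Bhlhe40 had 31, and neither had an HP peak. Irf8, a factor that directs monocyte fate, had 16 MAC peaks and none in HP, and Irf1, Irf5, Egr1, Egr2 and Nr4a1 had 3 to 8 MAC peaks and none in HP.

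**Figure D4:**
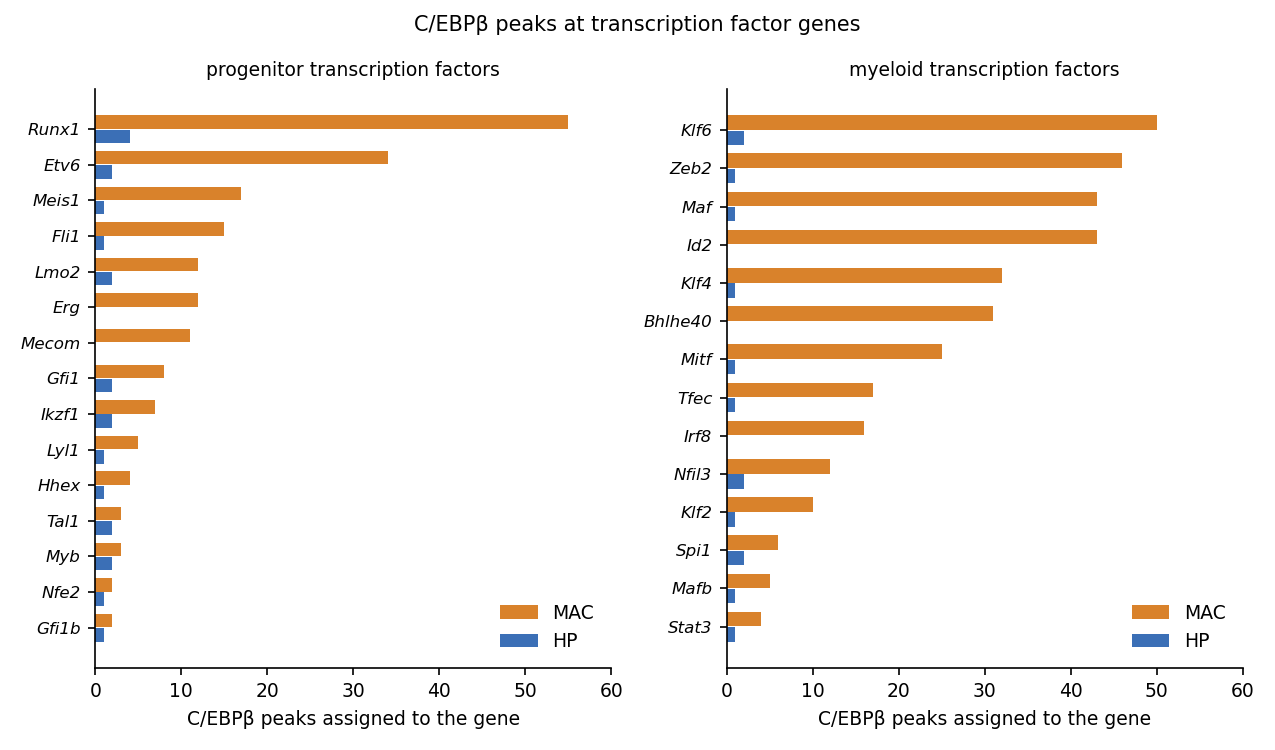
Number of C/EBPβ peaks assigned to a transcription factor gene (x axis) in HP and MAC, for the progenitor list on the left and the myeloid list on the right. Of the 20 genes of each list, those with an HP peak or at least 10 MAC peaks are drawn, and 13 and 11 of them have HP peaks.

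Among C/EBP genes and their partners, 5 of 12 had an HP peak and 11 had a MAC peak. Cebpb itself had 2 HP peaks and 20 MAC peaks. The HP peaks of Cebpb lay 65227 and 71214 bp downstream of its TSS, both were shared, both held the consensus and both were on PU.1 peaks of HP and of MAC, and the first is the sequence printed above. Atf3 (1 HP and 15 MAC peaks), Cebpg (1 and 11), Ddit3 (1 and 2) and Cebpe (1 and 3) made up the rest of the genes with an HP peak. Cebpa, Cebpd, Atf4, Batf, Batf2 and Batf3 had MAC peaks alone, and Atf5 had none. Of the AP-1 genes, Fos, Fosb, Fosl2 and Junb had 1 HP peak each, whereas Jun had none in HP and 24 in MAC.

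Genes of the amino acid stress response, many of them targets of ATF4 with C/EBP partners, had HP peaks at 7 of 18 (38.9%) and MAC peaks at all 18. Ndrg1 had 2 HP and 9 MAC peaks, and the promoter peak held the palindrome. The peak of Slc7a11, a cystine transporter gene, held the C/EBP-ATF composite and no C/EBP consensus. Trib3, Slc7a11 and Chac1 had HP peaks 20, 40 and 176 bp from their TSS. Asns, Psat1, Sesn2 and Ppp1r15a had no HP peak, and their MAC peaks came within 13, 135, 219 and 62 bp of the TSS. Aminoacyl-tRNA synthetases, which charge tRNA with amino acids, had HP peaks at 8 of 20 genes and MAC peaks at 19. All 8 were shared peaks and lay within 1051 bp of the TSS. Their median number of MAC peaks was 1, equal to that of all coding genes, and no member had more than 5.

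Lists of genes for the work of macrophages had MAC peaks at most or all of their members, and differed in their share with HP peaks. Pattern recognition receptors and adaptors had MAC peaks at 17 of 17 genes and HP peaks at 2 (11.8%, beside 10.7% of all coding genes), namely Tlr5 and Tlr13. Tlr4, the receptor for bacterial lipopolysaccharide, had 13 MAC peaks and no HP peak, and Tlr2, Nlrp3 and Cd14 had 9, 6 and 5 MAC peaks and no HP peak. Of the phagocyte NADPH oxidase genes, Cyba had 1 HP peak and the other 5 had none, with 4 to 7 MAC peaks per gene. In contrast, genes for lipid handling had HP peaks at 6 of 12 (50.0%), with a median domain of 96.4 kb. Abca1 (2 HP and 30 MAC peaks), Abcg1 (2 and 10) and Scarb1 (2 and 7), which move cholesterol across the membrane, had 2 HP peaks each. Apoe and Fabp4 had no peak in either list.

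Cytokines, chemokines and Ptgs2 had HP peaks at 7 of 18 genes (38.9%) and MAC peaks at all 18. Ptgs2, which encodes the inducible cyclooxygenase, was the one with 2 HP peaks, beside 7 in MAC, and its promoter peak with the palindrome lay 45 bp upstream of the TSS. Il6, Vegfa, Ccl2, Ccl3, Ccl6 and Ccl9 had 1 HP peak each. Il1a had the most MAC peaks, with 12, and Il1b had 9, Il1rn 8, Il12b 8 and Tnf 2, all with none in HP. Fc and phagocytic receptors had HP peaks at 6 of 18, and 3 of those genes (Fcgr1, Fcgr3 and Fcgr4) had HP only peaks, all of them at tRNA genes. Without peaks at tRNA genes 3 of the 18 had an HP peak. Marco, Msr1 and Cd36, which are scavenger receptors, had 12, 11 and 10 MAC peaks and none in HP. Lysosome genes had HP peaks at 5 of 20, among them Ctsb, Ctsd and Ctsl, and MAC peaks at 19. Ctsc had 19 MAC peaks and none in HP, and Ctsa had no peak in either list.

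Growth factor receptors had HP peaks at 4 of 10 genes, namely Csf3r, Il3ra, Il6ra and Kit, and MAC peaks at 9. The HP peak assigned to Kit lay 156005 bp from its TSS. Csf1r, the receptor for macrophage colony-stimulating factor, had 8 MAC peaks and none in HP. The sorting marker Itgam had 6 MAC peaks and no HP peak, and Itga2b had 2 MAC peaks and no HP peak. The marker genes of other blood and vessel cells stood near the share of all coding genes in HP. Neutrophil granule, megakaryocyte and erythroid lists each had HP peaks at 1 of 12 genes (8.33%), with Mpo in the first and Thbs1 in the second, and endothelial genes at 2 of 12, namely Flt1 and Esam. In MAC these 4 lists had peaks at 9, 8, 5 and 9 genes. Erythroid genes were the list with the lowest share in MAC (41.7%, beside 66% of all coding genes), with both globin genes Hbb-bs and Hbb-bt and Hba-a1 at no peak, in a median domain of 27.2 kb. Neuron genes had HP peaks at 1 of 12 and muscle genes at 0 of 12, and each had MAC peaks at 8 of 12. Adipocyte and liver genes had HP peaks at Adipoq and Apoa1 and MAC peaks at 9 of 12. Counts of some lists moved with the rule that ties peaks to genes. Within 50 kb of a TSS, HP peaks were at 1 of 12 adipocyte and liver genes and at none of the neuron or megakaryocyte genes, and MAC peaks at 4 of 12 neuron genes. In a gene or at most 10 kb away, HP peaks were at 4 of 17 pattern receptors, 1 of 12 endothelial, 2 of 12 erythroid and 0 of 12 neuron genes, and MAC peaks at 5 of 12 adipocyte and liver genes. The shares over all coding genes given above hold for the main rule only. Of 21000 coding genes, 1840 had both an HP and a MAC peak within 50 kb of a TSS, and 2422 in a gene or at most 10 kb away.

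**Figure D5:**
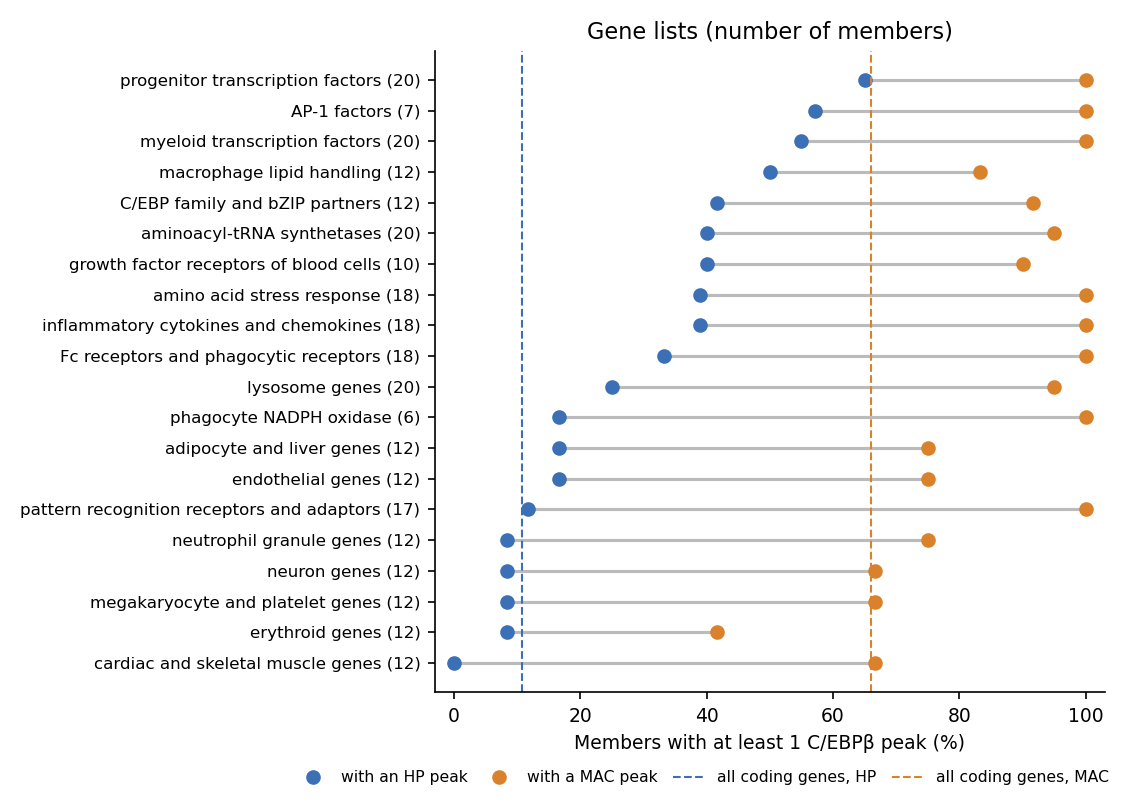
Share of the members of each gene list with at least 1 C/EBPβ peak (%, x axis) in HP and in MAC, with the number of members in brackets. Dashed lines give the share over all coding genes, 10.7% in HP and 66% in MAC. Progenitor transcription factors stand highest in HP, at 65.0%, and pattern receptors, at 100% in MAC, stand at 11.8% in HP.

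With as many MAC rows as HP peaks, and 10.2% of coding genes holding a MAC peak, the same order of lists was seen only in part. MAC peaks were then at 12 of 20 progenitor factors, 11 of 20 myeloid factors, 5 of 7 AP-1 factors, 7 of 12 lipid genes, 4 of 17 pattern receptors and 4 of 20 lysosome genes. They were at 3 of 12 C/EBP genes and partners, 5 of 18 Fc and phagocytic receptors, 7 of 18 cytokine genes, 5 of 18 stress genes, 7 of 20 synthetases, 2 of 10 growth factor receptors, 2 of 6 oxidase genes, 3 of 12 neutrophil granule genes and 2 of 12 erythroid genes. The lists below the share of all coding genes were megakaryocyte, endothelial and adipocyte and liver genes, with 1 of 12 each, and neuron and muscle genes, with none.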

How the data were processed

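C/EBPβ ChIP-seq peaks of HP and MAC cells were analysed as deposited. The authors removed adapters (CutAdapt), aligned reads (Bowtie) to mm10, kept unique reads, removed duplicates (Picard), called peaks with MACS against the input of each stage, refined them with polyPeak and set all to 400 bp around the summit. For HP, sequencing runs were combined. Versions: not given in the sources used here. The submitters' processing notes also name bedtools. The deposited values are other than counts: start and end positions per peak, with no score or depth. Read totals that the study gives elsewhere were not used here. Peak starts were converted to 1-based positions. All peak ends lay within the GRCm38 chromosomes, and the RefSeq genome and annotation of that build gave 26032 coding TSS, 21000 coding genes and 403 tRNA genes.

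Each peak was assigned to the coding gene with the nearest TSS. Beside the letters given above, the CCAAT box (as CCAATCA), the cyclic AMP response element or CRE (as TGACGTCA) and the CTCF motif were searched on both strands, and the palindrome is 1 of the 4 C/EBP forms. Shares carry exact Clopper-Pearson 95% intervals and were compared between classes by Fisher's exact test (two-sided), with Benjamini-Hochberg adjustment within the 3 promoter, 30 consensus, 36 overlap, 3 tRNA and 30 row-block comparisons, at a threshold of 0.05. The overlap between the HP and MAC lists, gene counts and gene list counts were described without tests. All 279 distinct genes of 20 lists were matched. Named genes were the 10 with the most HP, MAC or HP only peaks (ties by symbol), list members with at least 2 HP peaks, the most MAC peaks or none, the sorting markers, Cebpb, Spi1 and Hhex. Further list members were named to complete a count, chosen after their values were seen. Alternatives were an overlap of 200 bp, as many of the first MAC rows as HP has peaks, removal of peaks at tRNA genes, promoter windows of 1 and 5 kb or TSS of all transcripts, distal peaks, the central 200 bp, assignment within 50 kb, peaks in or within 10 kb of a gene and, chosen after seeing the data, blocks of MAC rows and MAC only peaks per gene. The members and lists were chosen with earlier results of these data known. Python 3.11.15, NumPy 2.4.6, SciPy 1.17.1 and Matplotlib 3.10.9 were used, and the steps were tested on simulated data. Values of some list members are not reported here.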

Additional observations from a re-analysis of the deposited data

How the results depend on the processing

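Of the alternative values of the main results, 83 kept direction and side of the threshold, or a value within 1.5 times, and 8 moved, 5 changed sign, 4 passed only then and 3 no longer passed. Those that kept it include every alternative for the differences between shared and MAC only peaks in C/EBP consensus, promoters and overlap with PU.1 peaks. Results on HP only peaks and counts of genes moved. When as many MAC rows as HP peaks are used, HP only includes HP peaks that overlap later MAC rows, so those values are not of peaks absent from MAC. With as many MAC rows as HP peaks (the first rows), 33.7% of HP peaks overlapped, 1059 genes had both, 1189 HP alone and 1089 MAC alone, the median MAC peaks with and without an HP peak were 0 and 0, and differences of HP only peaks from MAC only peaks became 16.1 points for the C/EBP consensus (adjusted exact p = 1.1e-25), 12.3 for promoters (2.8e-20) and 3.39 for HP PU.1 (0.00228), and from shared peaks -4.39 for the consensus (0.0539). Without tRNA peaks the overlap was 95.6%, 10 genes had HP peaks alone, and the differences were 12.5 (0.00123) for the consensus and 2.29 (0.393) for HP PU.1 against MAC only, and -7.15 (0.0631) for HP PU.1 and -6.57 (0.167) for promoters against shared. With TSS of all transcripts, which include tRNA and other noncoding genes, HP only promoters were 45.2 points above MAC only (1.4e-48) and 28.0 above shared (2.0e-16). The consensus difference of HP only from MAC only, 0.0704 points, became -0.802 in distal peaks and -0.0621 in the central 200 bp.

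Other differences, in percentage points, changed sign as follows, and the cause was not tested. For shared minus MAC only peaks, GATA letters gave -0.338 with the first rows, CCAAT -0.0591 and PU.1 letters 0.0242 in distal peaks, and AP-1 4.80 within block 8 of the MAC rows (adjusted exact p = 0.506). For HP only minus MAC only peaks, the first rows gave CTCF 0.888 (adjusted exact p = 0.0218), CCAAT 0.167 and CRE 0.333, distal peaks C/EBP-ATF -0.826 and CRE 0.285, the central 200 bp CCAAT 0.163, and removal of tRNA peaks CRE 0.773 and overlap with ELK4 of MES -0.238. For HP only minus shared peaks, the first rows gave palindrome 2.32, RUNX 2.08 and overlap with HB C/EBPβ -5.23 (adjusted exact p = 0.00111), and removal of tRNA peaks C/EBP-ATF 4.09, CRE 0.352, RUNX 6.27, HB C/EBPβ -7.09 and RUNX1 of MAC 0.362. An overlap of 200 bp gave RUNX1 of MAC 0.230 and distal peaks ELK4 0.354. Of the calls named for shared against MAC only peaks, RUNX and C/EBP-ATF were lost with the first rows, at 0.0320 and 1.04 points. Under these settings CTCF and HB C/EBPβ with the first rows passed the threshold and the others did not.

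Counts of peaks rest on thresholds chosen per library, and with 1 list per population there was no replicate to leave out. No paired analysis was possible because each group held 1 list.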
